A study of Mus musculus with 36 samples.

Results

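The nuclear genes for subunits of the oxidative phosphorylation system were described across the annotated cell types of the mouse small-intestinal epithelium. Members were all genes whose symbol starts with Nduf, Uqcr, Cox4, Cox5, Cox6, Cox7, Cox8 or Atp5, with pseudogenes left out. This gave 88 of the 27998 genes in the single-cell files. By their known place, 36 members encode subunits of complex I, 8 of complex III, 20 of complex IV and 15 of complex V. The other 9 are Ndufaf1 to Ndufaf7, which are known or proposed complex I assembly factors, with Atp5s and Atp5sl. Ndufa4 was counted with complex IV, where its protein is now placed.

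Cells came from 2 single-cell libraries, set1 and set2, of small intestine from wild-type C57BL6/2J mice aged 12 months. No treatment or mutant allele is named for them, so every group here is a cell type within the same libraries. The authors' annotation names 8 types: intestinal stem cells, progenitors, enterocytes, secretory progenitors, goblet cells, Paneth cells, enteroendocrine cells and tuft cells. How many mice there were, and whether the sets are separate mice, is something the labels leave out. The 34 small RNA libraries of the series were not used.

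Annotated cells numbered 1144 in set1 and 1470 in set2, and no barcode was shared between the sets. The smallest groups were tuft cells with 24 and 23 cells, and the largest were enterocytes with 406 and 488. Summed counts per type and set ran from 425289 to 15332200 UMIs (unique molecular identifiers, each marking 1 captured transcript). Median depth per cell was 11858 to 73555 UMIs in set1 and 12685 to 67245 in set2, highest in Paneth cells in both. Marker lists of enterocytes, goblet, Paneth, enteroendocrine and tuft cells had every gene highest in their own type in both sets. The stem cell list had 6 of 7 genes highest in its own type and the progenitor list 5 of 8. The secretory progenitor list had 1 of 6, and its sum was higher in goblet cells, with which it shares Tff3 and Spdef. Hemoglobin transcripts reached 1869 CPM (UMIs of a gene or list, scaled to the same total in every type and set) in set1 progenitors and at most 41.1 in every other type and set; their part in the results was not tested.

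Oxidative phosphorylation makes most of the ATP of respiring cells. Complex I takes electrons from NADH, complex III passes them from ubiquinone to cytochrome c, and complex IV hands them to oxygen. These complexes pump protons across the inner mitochondrial membrane, and complex V, the ATP synthase, lets them flow back to make ATP. A few core subunits are encoded in mitochondrial DNA, and all others come from nuclear genes such as the members here. In the intestine, stem cells at the crypt base give rise to progenitors that become absorptive enterocytes or secretory cells.

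The members together were most abundant in enterocytes and least abundant in Paneth cells in both sets. They took 8.45% of all UMIs in set1 enterocytes and 6.68% in set2 enterocytes. In progenitors the shares were 7.0% and 5.77%, and in stem cells 6.40% and 5.24%. Tuft cells had 6.18% and 5.14%, and secretory progenitors 5.44% and 4.69%. Enteroendocrine cells had 5.11% and 3.93%, and goblet cells 4.36% and 3.81%. Paneth cells had 0.534% and 1.04%, far below every other type. The order of the types was the same in both sets. Within a set, stem cells and tuft cells lay next to each other, 6.40% against 6.18% in set1 and 5.24% against 5.14% in set2, which is less than the gap between the sets. Each share is of all transcripts captured, so fewer member transcripts and more of other transcripts cannot be told apart.

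Paneth cells also gave much of their RNA to a few genes. Their 7 listed markers, antimicrobial products such as Defa24 and Lyz1, took 441190 CPM in set1 and 394390 in set2. Counted per cell, Paneth cells held a mean of 373 member UMIs in set1 and 626 in set2. Enterocytes held 1330 and 2098, and goblet cells 765 and 1012. Enteroendocrine cells held 795 and 709, and in set2 their median cell, with 389 member UMIs, was close to the 372 of Paneth cells. Across single cells, the members' share in enterocytes had quartiles of 7.56% and 9.21% in set1 and 6.28% and 7.27% in set2. In Paneth cells the quartiles were 0.338% and 0.631% in set1 and 0.396% and 1.41% in set2.

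The 4 complexes kept nearly the same proportions in every type. Of the members' UMIs, complex IV made up 33.2% to 35.9% over the 8 types in set1 and 29.7% to 32.4% in set2. Complex V made up 26.1% to 28.3% and 28.0% to 29.6%, and complex I 23.3% to 26.9% and 25.5% to 28.2%. Complex III made up 12.3% to 13.4% and 11.9% to 12.9%. Enterocytes had the highest complex IV share and the lowest complex I share of the 8 types in both sets, and tuft cells had the lowest complex III share. The spread between types was of the same size as the gap between the sets, since complex IV was lower in set2 in every type. The 9 assembly and other factors took under 1 in 100 member UMIs, and least in enterocytes, with 0.235% in set1 and 0.334% in set2. The highest factor shares were 0.514% in set1 tuft cells and 0.771% in set2 enteroendocrine cells.

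**Figure D1:**
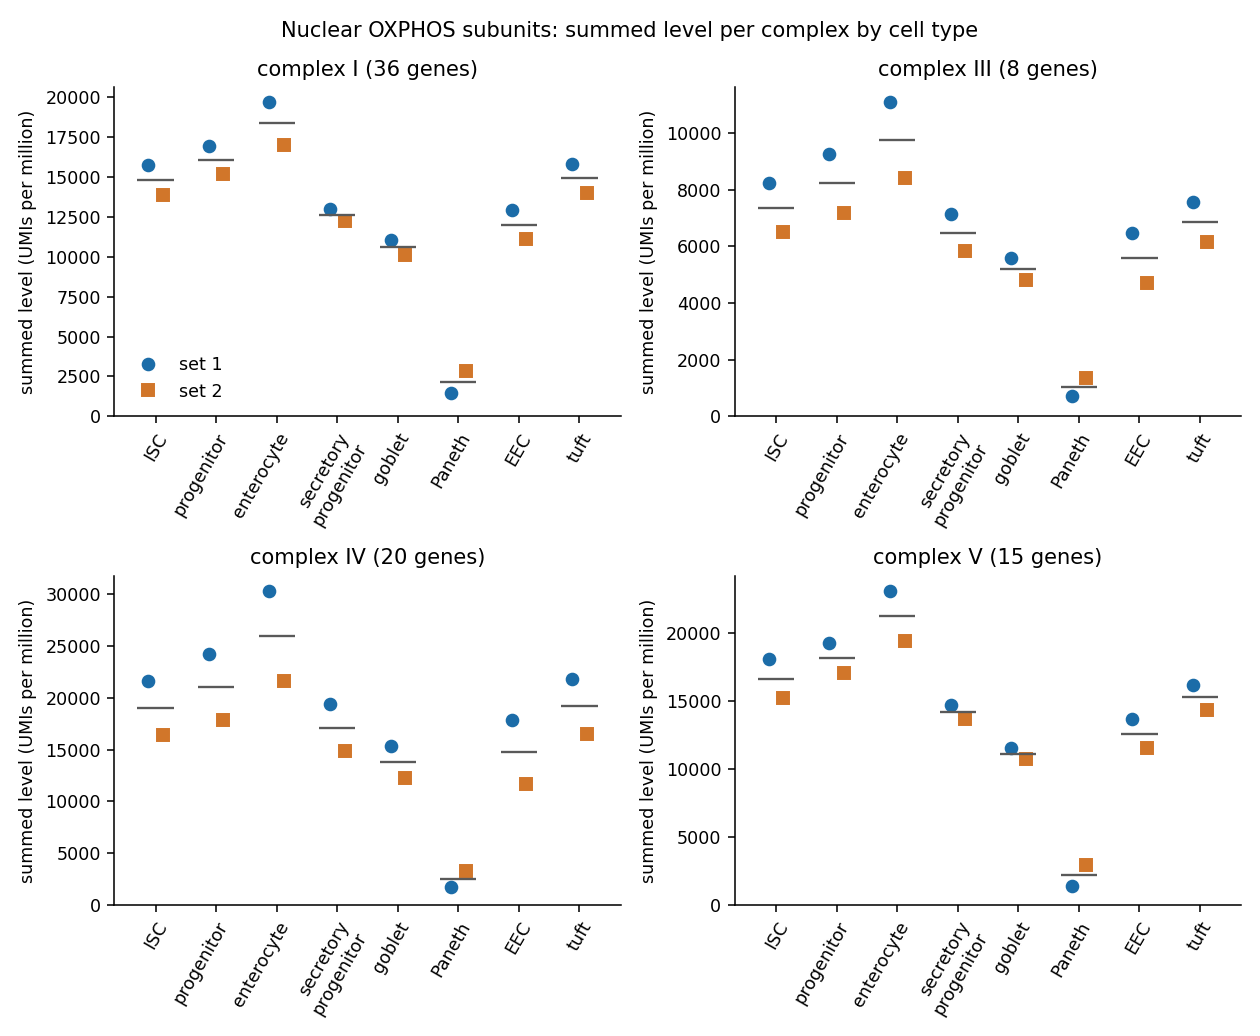
Summed level of the members of each complex (y axis, CPM, from 0) in the 8 cell types (x axis; ISC, stem cells, and EEC, enteroendocrine cells), with a circle for set1, a square for set2 and a line at their mean. Enterocytes are highest and Paneth cells lowest in all 4 panels in both sets, for example 30346 and 21653 CPM for complex IV in enterocytes against 1774 and 3236 in Paneth cells.

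Single members mostly followed the same order. Of the 81 members with at least 200 UMIs, 52 were highest in enterocytes in both sets: 21 of complex I, 7 of complex III, 11 of complex IV and 13 of complex V. None of the 9 factors was among them. Progenitors were highest for 5 members, Ndufa5, Ndufa8, Uqcr10, Ndufaf1 and Ndufaf4, and tuft cells for 3, Ndufa7, Ndufaf3 and Ndufaf7. These 8 names were chosen after their values were seen. For 18 members the highest type differed between the sets. All 81 were lowest in Paneth cells in both sets, and next to Paneth cells 44 were lowest in goblet cells in both sets.

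The sets differed from each other in many members. Outside Paneth cells, 36 of the 81 members were higher in set1 in all 7 types and 18 were higher in set2 in all 7. Ndufa3, an accessory subunit of complex I, was the most unequal, at 4.44-fold higher in set1 (median over 7 types), followed by Atp5k, a membrane subunit of complex V, at 3.61-fold. In progenitors Ndufa3 stood at 659 CPM in set1 and 144 in set2. Cox6a1, a complex IV subunit, was 2.59-fold higher in set1, and Ndufb2, another accessory complex I subunit, 2.29-fold. The 13 mitochondrially encoded subunits went the other way, with 5.86% of progenitor UMIs in set1 and 9.79% in set2. Tests between types were therefore made within sets, with the set as a term of the model.

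Each test compared UMI sums of 2 types in edgeR's quasi-likelihood model over 11610 genes, of which 83 were members, and a gene was called at a Benjamini-Hochberg adjusted p under 0.05. The 5 members outside the test were Cox7b2, Cox8b and Cox8c with 0 UMIs, Cox4i2 with 0 and 1 and Ndufa4l2 with 1 and 3 UMIs in set1 and set2. The authors' types were defined from expression in the same cells, so p-values show how well the 2 sets repeat a difference and are not independent evidence for it. Fold changes are on the TMM scale, which sets most genes of a pair near no change. Of all genes, the median log2 fold change was between -0.11 and 0.03 in the 6 pairs. Dividing by library totals alone moved that median to -0.34 in enterocytes against progenitors, -0.35 in goblet, -2.27 in Paneth and 0.15 in enteroendocrine cells against secretory progenitors.

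**Figure D2:**
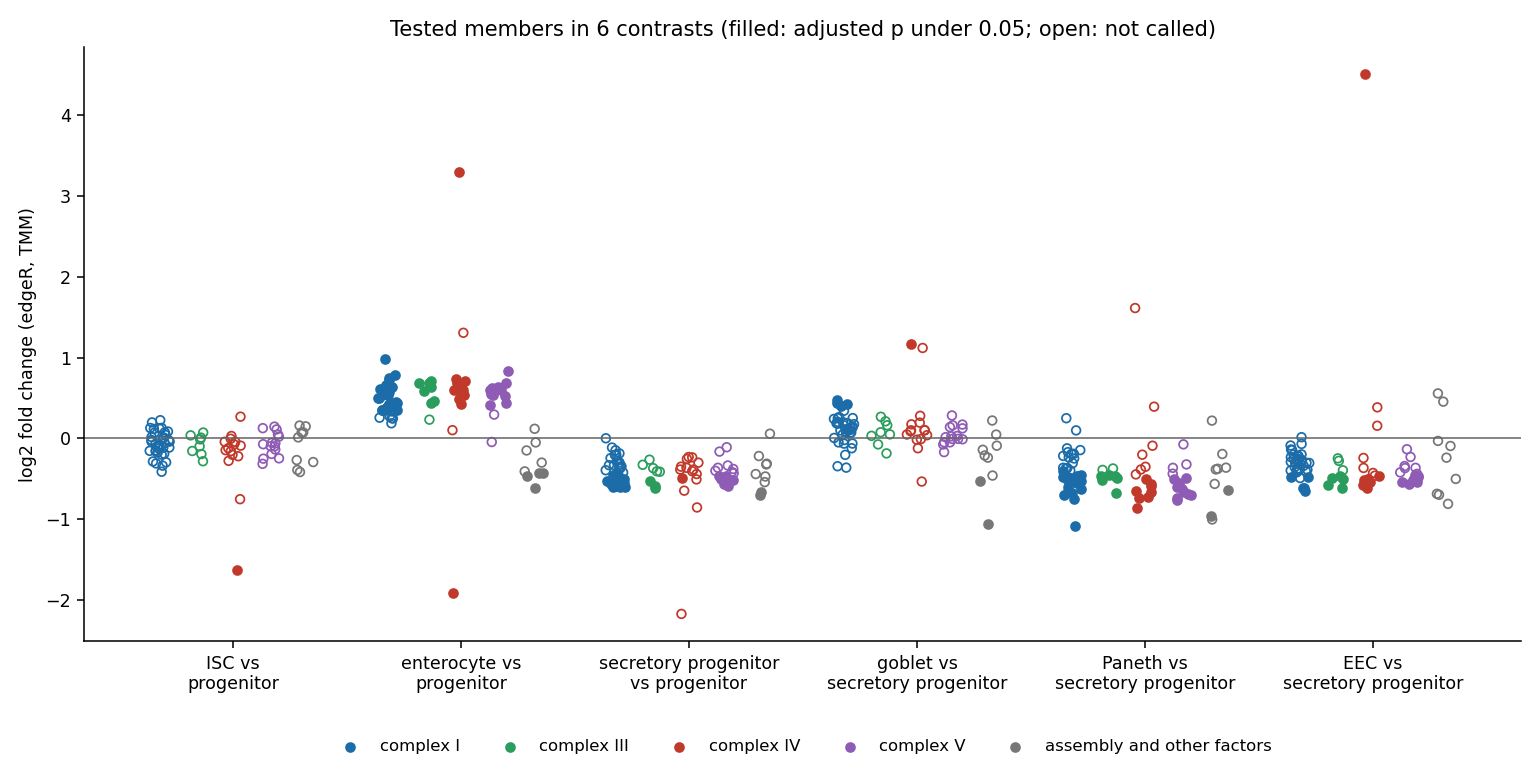
Log2 fold change (y axis, edgeR with TMM scaling) of each of the 83 tested members in the 6 pairs of types (x axis), coloured by complex, filled where called at adjusted p under 0.05 and open where not. In enterocytes nearly all members of complexes I, III, IV and V lie above 0 and the factors mostly below it, with Cox7a1 at 3.30, and the high point in enteroendocrine cells (EEC) is Cox6a2, which has few UMIs.

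Enterocytes against progenitors showed the widest change. Of the 83 members, 60 rose and 5 fell in enterocytes, against 27.8% of all genes called higher and 28.2% called lower (56.0% in either direction). In plain CPM 56 of the 60 were higher in enterocytes in both sets, and all 5 that fell were lower in both. Rises were called for 28 of 36 complex I members, 7 of 8 of complex III, 12 of 15 tested of complex IV and 13 of 15 of complex V. None of the 9 factors rose and 4 fell. The members' median log2 fold change was 0.50, against -0.05 for all genes. Over 14 versions of the analysis the members' median stayed 0.40 to 0.56 above that of all genes. Their size in absolute terms depended on scale: the members' summed CPM were 1.18-fold higher (log2 ratio 0.24 ± 0.04, SD, n = 2), and the log2 ratio was 0.0597 with mitochondrial and ribosomal protein genes left out. With library totals in place of TMM only 1 member was called higher and 6 lower, against 1459 and 3313 of all 11610 genes. With Paneth sums left out as well 31 were higher and 9 lower, against 2141 and 4562 of 10575 genes. With the set left out of the model 8 were higher and 0 lower, against 1772 and 1809 of 11610 genes. In the first and last of these fits a smaller share of members than of all genes was called higher.

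In complex I the rises in enterocytes took in 6 of 7 core subunits, which include the carriers of the flavin and iron-sulfur centres, and 22 of 29 accessory subunits. Ndufa6, an accessory subunit at the matrix arm, had the largest rise of a complex I gene. Its level was 1204 CPM in set1 and 636 in set2 enterocytes, against 751 and 398 in progenitors. Within each set the enterocyte value was the highest of all types. The log2 fold change was 0.98 (SE 0.14, edgeR adjusted p = 3.06e-06). Ndufa1, a small membrane subunit, stood at 511 and 278 in enterocytes and at 359 and 202 in progenitors. It rose by 0.78 (SE 0.14, edgeR adjusted p = 5.35e-05), but set1 tuft cells were as high, at 520. No complex I member fell in enterocytes. Ndufs1, a core subunit named because it fell most in Paneth cells, rose by 0.38 (SE 0.14, edgeR adjusted p = 0.0229), with 70.9 and 108 CPM in enterocytes and 64.4 and 106 in progenitors. The 8 complex I genes that were not called had log2 fold changes of 0.19 to 0.35; among them were Ndufa5, Ndufb6 and Ndufs8.

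In complex III, Uqcrfs1, the Rieske iron-sulfur protein, stood at 660 and 597 CPM in enterocytes and at 486 and 454 in progenitors. Both enterocyte values lay above both progenitor values, and the log2 fold change was 0.72 (SE 0.15, edgeR adjusted p = 0.000205). Uqcrh, the hinge protein beside cytochrome c1, stood at 2164 and 1910 against 1624 and 1480, again without overlap, and rose by 0.69 (SE 0.16, edgeR adjusted p = 0.000738). The core proteins Uqcrc1 and Uqcrc2, named because they recur in other pairs, rose by 0.69 (SE 0.15, adjusted p = 0.000305) and 0.44 (SE 0.15, adjusted p = 0.0147). Uqcr10 was the one complex III gene not called, at 0.23 (edgeR adjusted p = 0.213).

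In complex V all 5 genes of the catalytic F1 head and central stalk, all 4 of the peripheral stalk and all 3 other membrane subunits rose in enterocytes. Atp5o, the stalk subunit that contacts the F1 head, stood at 1549 and 1556 CPM in enterocytes and at 927 and 1234 in progenitors. The enterocyte values were alike in the sets and lay above both progenitor values, and the log2 fold change was 0.84 (SE 0.17, edgeR adjusted p = 0.000175). Atp5c1, the rotating gamma subunit, stood at 1082 and 1276 against 795 and 1010. It rose by 0.69 (SE 0.15, edgeR adjusted p = 0.000484), though set1 enterocytes and set2 progenitors were close. The inhibitor of the ATP synthase, Atpif1, which the symbol rule leaves out, rose by 0.62 (SE 0.16, edgeR adjusted p = 0.00185).

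Of the 9 factors in the rule 0 rose and 4 fell, against 27.8% of all genes called higher and 28.2% called lower. A wider list of 31 tested assembly factors outside the rule had 10 higher and 6 lower, with a median of 0.14. The share of this wider list called higher was near that of all genes. Ndufaf4, an assembly factor of complex I, stood at 42.6 and 51.9 CPM in enterocytes and at 81.6 and 79.4 in progenitors. The values did not overlap, and Ndufaf4 fell by 0.46 on the log2 scale (SE 0.13, edgeR adjusted p = 0.00374). Ndufaf7 fell by 0.61 (SE 0.16, adjusted p = 0.00249), Ndufaf6 by 0.42 (SE 0.17, adjusted p = 0.0323) and Ndufaf5 by 0.43 (SE 0.18, adjusted p = 0.0437), all in edgeR. These 3 genes were below 40 CPM in every type. The summed factors were at 198 and 223 CPM in enterocytes and 312 and 330 in progenitors, a log2 ratio of -0.61 ± 0.06 (SD, n = 2).

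Complex IV and the c-ring of complex V have subunits with more than 1 nuclear gene, several of them known as muscle or heart forms. Cox4i1, Cox6a1, Cox6b1, Cox7a2, Cox8a, Ndufa4 and Atp5g3 were highest in enterocytes in both sets, as most members were, while Cox7a2l, Atp5g1 and Atp5g2 were not. Cox7a1, the form of subunit 7a known from heart and skeletal muscle, stood at 790 CPM in set1 and 239 in set2 enterocytes. In progenitors it stood at 89.6 and 33.6, and in goblet cells at 73.9 and 48.4. Both enterocyte values lay far above those of every other type. Secretory progenitors had 50.8 and 25.1, enteroendocrine cells 44.1 and 30.8 and tuft cells 79.9 and 13.8. Stem cells were lowest outside Paneth cells in set1, at 19.9, and in set2 they had 15.9 against 13.8 in tuft cells. Paneth cells had 9.56 and 3.16.

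Cox7a1 rose by 3.30 on the log2 scale in enterocytes against progenitors (SE 0.25, edgeR adjusted p = 9.89e-11), the largest change of a member in that pair. Its liver or ubiquitous counterpart Cox7a2 stood at 2634 and 1652 CPM in enterocytes and at 1944 and 1276 in progenitors, and rose by 0.71 (SE 0.16, edgeR adjusted p = 0.000669). Of the UMIs of both genes, Cox7a1 made up 23.1% (95% Wilson interval 22.5% to 23.6%) in set1 and 12.6% (12.3% to 13%) in set2 enterocytes. In progenitors it made up 4.41% (4.06% to 4.78%) and 2.57% (2.33% to 2.83%), and in stem cells 1.32% (0.886% to 1.95%) and 1.47% (0.981% to 2.19%). These intervals cover counting error only. The enterocyte share was thus the highest in both sets, and the sets differed from each other by more than the intervals. The related Cox7a2l, a factor for joining complexes III and IV into supercomplexes, was not called in enterocytes (log2 fold change 0.10, SE 0.14, edgeR adjusted p = 0.563). It stood at 526 and 490 CPM there, 618 and 548 in progenitors and 718 and 642 in stem cells.

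The 3 c-ring genes encode the same mature protein with different import sequences, so their shares describe which gene supplies it. Atp5g1 made up 46.8% of c-ring UMIs in set1 and 48.8% in set2 enterocytes, close to 47.6% and 49.1% in progenitors. Atp5g2 made up 21.0% (95% Wilson interval 20.6% to 21.5%) and 20.1% (19.7% to 20.4%) in enterocytes, the lowest of all types in both sets. It made up 27.7% and 25% in progenitors, 34.0% and 29.7% in stem cells and 38.3% and 35.6% in Paneth cells. Atp5g3 was the reverse, with 32.1% and 31.1% in enterocytes and 24.7% and 25.9% in progenitors. In enterocytes Atp5g3 rose by 0.64 (SE 0.15, edgeR adjusted p = 0.00107), with 1398 and 1211 CPM against 1079 and 984. Atp5g1 (log2 fold change 0.29, SE 0.17, edgeR adjusted p = 0.143) and Atp5g2 (-0.05, SE 0.16, edgeR adjusted p = 0.824) were not called. A test of the difference between these genes was not made. Reads of such close copies, and of the processed pseudogenes that many members have, could be split between genes in counting, so these values are uncertain to that degree.

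**Figure D3:**
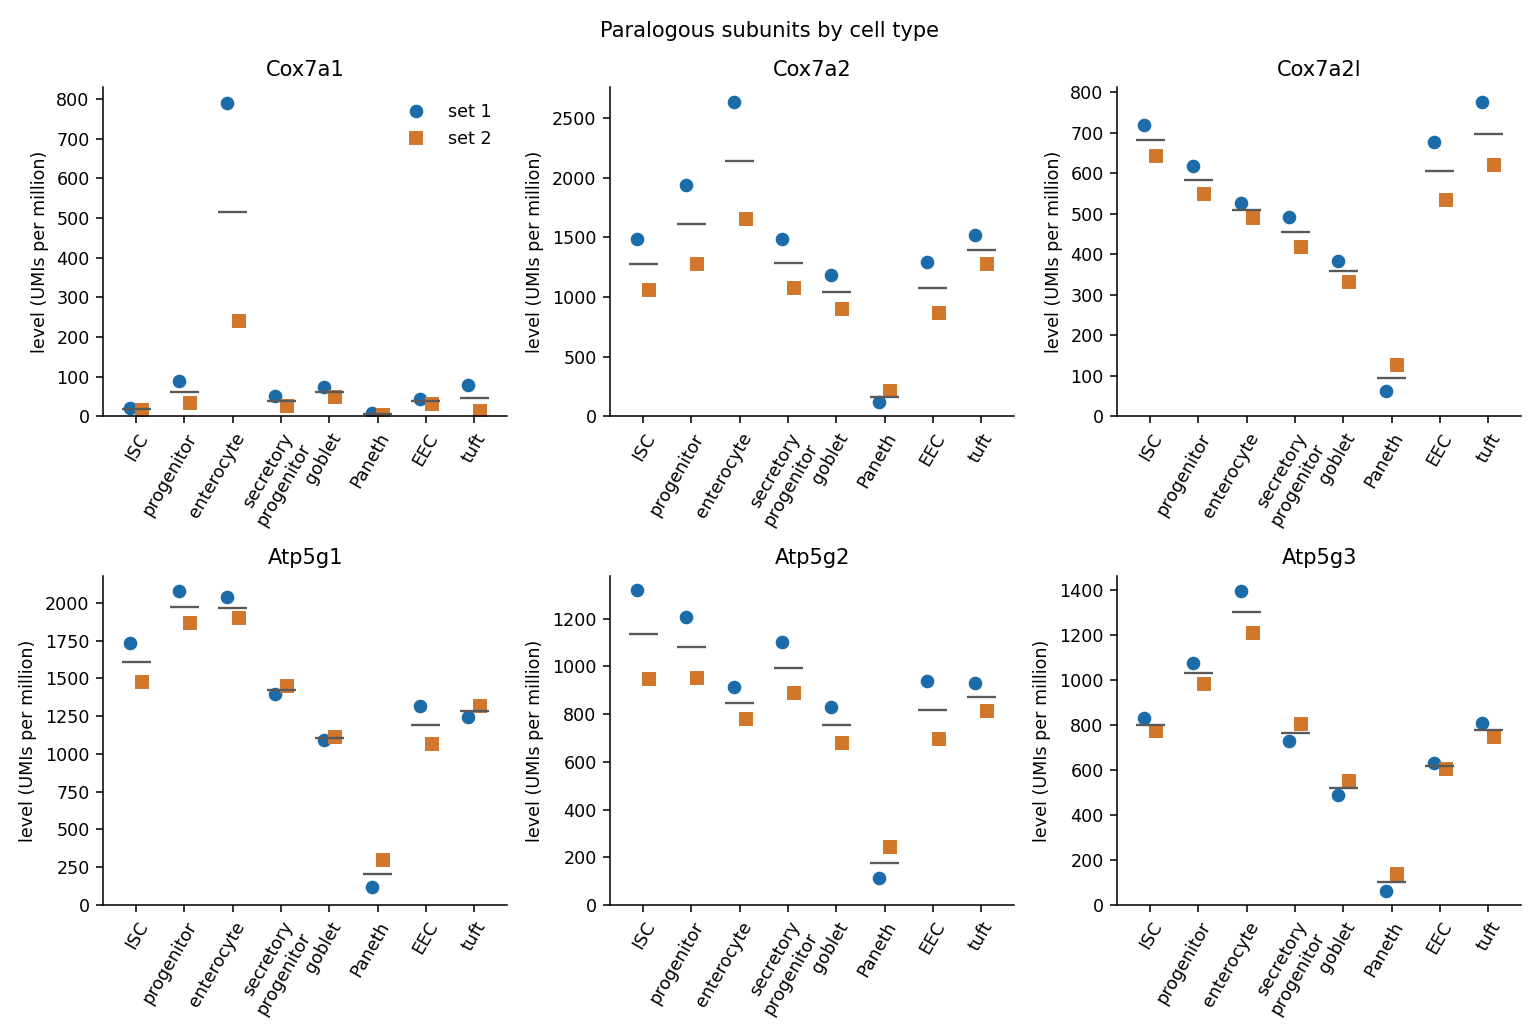
Level (y axis, CPM, from 0, a scale per panel) of 6 paralogous subunit genes in the 8 cell types (x axis), with a circle for set1, a square for set2 and a line at their mean. Cox7a1 stands out in enterocytes at 790 and 239, Atp5g3 peaks there at 1398 and 1211, and Atp5g2 is lower there, at 915 and 780, than in progenitors.

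The other paralogs were set by 1 gene in the epithelium. Cox4i1 stood at 3508 and 2832 CPM in enterocytes, while Cox4i2, the form known from lung, had 1 UMI in all annotated cells. Cox8a stood at 3550 and 2883 there, and the muscle form Cox8b and Cox8c had none. Ndufa4 stood at 2362 and 2029, and Ndufa4l2 had 4 UMIs in all. Cox6a1 stood at 2424 and 932 in enterocytes and rose against progenitors (log2 fold change 0.69, SE 0.16, edgeR adjusted p = 0.00083), while the muscle form Cox6a2 had 20 UMIs in set1 and 37 in set2. Cox6b1 stood at 2479 and 1575 and rose by 0.60 (SE 0.16, edgeR adjusted p = 0.00237). Cox6b2, known from testis, was at 1.10 and 0.848 in enterocytes and at 8.13 and 2.88 in progenitors. It fell by 1.92 on the log2 scale (SE 0.46, edgeR adjusted p = 0.00107), a call that rests on 94 UMIs in set1 and 66 in set2 over all types. Cox5a and Cox5b, which are different subunits, rose by 0.74 (SE 0.17, adjusted p = 0.000779) and 0.57 (SE 0.16, adjusted p = 0.00464). Cox5a stood at 2136 and 2270 against 1502 and 1757.

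Promoter sequences are given for Cox7a1 and the 3 c-ring genes, whose shares differed between types, to show what lies upstream of each. RefSeq promoters (build GRCm38.p6, 250 bases before to 50 after the start) were matched for 73 of the 88 members, 3 of them through a synonym, with 79 promoters in all. Below are the 250 bases before the start, 5′ to 3′ on the gene's strand, with any searched motif in capitals. Cox7a1 (ENSMUSG00000074218) lies at chr7:30183921-30184170 on the plus strand. Atp5g1 (ENSMUSG00000006057) lies at chr11:96075632-96075881, Atp5g2 (ENSMUSG00000062683) at chr15:102671048-102671297 and Atp5g3 (ENSMUSG00000018770) at chr2:73911327-73911576, all on the minus strand.
Cox7a1: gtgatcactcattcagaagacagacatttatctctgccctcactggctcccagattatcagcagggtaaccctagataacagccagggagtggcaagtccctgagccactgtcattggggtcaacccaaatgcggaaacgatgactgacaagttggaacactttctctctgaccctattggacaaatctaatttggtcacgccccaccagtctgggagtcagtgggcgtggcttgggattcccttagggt
Atp5g1: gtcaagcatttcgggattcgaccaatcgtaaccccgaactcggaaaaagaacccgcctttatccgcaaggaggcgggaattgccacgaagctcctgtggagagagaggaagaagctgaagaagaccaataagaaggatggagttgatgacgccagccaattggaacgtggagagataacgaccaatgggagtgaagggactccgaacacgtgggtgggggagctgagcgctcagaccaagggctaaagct
Atp5g2: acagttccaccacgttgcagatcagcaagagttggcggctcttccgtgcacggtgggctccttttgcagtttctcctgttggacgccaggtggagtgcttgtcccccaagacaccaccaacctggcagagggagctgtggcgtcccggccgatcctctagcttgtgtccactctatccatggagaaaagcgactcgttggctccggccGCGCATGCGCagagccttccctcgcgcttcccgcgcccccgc
Atp5g3: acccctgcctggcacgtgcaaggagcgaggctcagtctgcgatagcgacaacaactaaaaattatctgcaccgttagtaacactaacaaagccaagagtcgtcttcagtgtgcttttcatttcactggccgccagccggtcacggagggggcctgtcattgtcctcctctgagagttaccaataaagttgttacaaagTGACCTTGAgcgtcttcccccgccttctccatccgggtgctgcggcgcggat
The capitals in Atp5g2 are an NRF1 motif at bases 209 to 218, and those in Atp5g3 an ESRRA motif on the opposite strand at bases 199 to 207. Cox7a1 and Atp5g1 held none of the searched letters in this window.

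Motifs were searched in the full 300 bases on both strands as exact letters. The NRF1 motif, the capitals in the Atp5g2 sequence above and the site of a regulator of respiratory genes, was in 7 of the 79 member promoters (8.86%) and in 0.971% of all 32851 promoters. Its holders were Atp5g2, Atp5k, Cox6a1, Ndufa11, Ndufaf4, Ndufaf5 and Uqcrc1. The YY1 motif was also in 7 promoters (8.86%), against 0.852% of all promoters. They belonged to Atp5j, Atp5sl, Ndufa9, Ndufs4, Ndufs6 and Ndufs7, since a gene can have more than 1 promoter. The ETS motif CCGGAAGT was in 5 (6.33%) against 3.89%. The ESRRA motif TCAAGGTCA was in 1 (1.27%), that of Atp5g3, against 0.423%. The HNF4 motif CAAAGTCCA and the PPAR-type direct repeat (AGGTCA, any base, AGGTCA) were in 0 member promoters and in 0.475% and 0.0396% of all. A match is a description of letters and not a bound site.

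Stem cells differed little from progenitors in these genes. Of the 83 members 0 rose and 1 fell, against 2.04% of all genes called higher and 4.88% called lower (6.93% in either direction). At an unadjusted p under 0.05, 0 were higher and 7 lower in edgeR. The direction changed with the scaling: DESeq2 had 9 higher and 1 lower, and edgeR with DESeq2's size factors 3 and 1. The 1 called member was Cox7a1, which fell by 1.63 on the log2 scale (SE 0.35, edgeR adjusted p = 0.00503). Its stem cell values, 19.9 and 15.9 CPM, lay below both progenitor values, 89.6 and 33.6. The 10 enterocyte markers were lower with it, at 1378 CPM against 2523 in set1 and 700 against 1152 in set2, and their part in this fall was not tested. DESeq2 called 2 members higher and 1 lower, against 331 and 263 of all 11610 genes. With the set left out of the edgeR model 0 members were called, against 18 genes higher and 82 lower. The members' median log2 fold change was -0.07 and that of all genes -0.10. The summed level was 0.911-fold that of progenitors (log2 ratio -0.14 ± 0.01, SD, n = 2).

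Secretory progenitors were lower than progenitors. Of the 83 members 0 rose and 31 fell, against 7.33% of all genes called higher and 5.56% called lower (12.9% in either direction). Falls were called for 18 of 36 complex I members, 5 of them core subunits, 3 of 8 of complex III, 1 of 15 tested of complex IV, 7 of 15 of complex V and 2 of 9 factors. All but 2 of the 83 had a negative log2 fold change, and the median was -0.42, against -0.08 for all genes. The summed level was 0.795-fold that of progenitors (log2 ratio -0.33 ± 0.05, SD, n = 2). With library totals in place of TMM, or with the set left out of the model, 0 members were called. Of all 11610 genes these fits called 78 and 19 lower. At an unadjusted p under 0.05 they had 2 and 15 members lower. With Paneth sums left out, library totals gave 38 members lower, against 574 of 10575 genes. Thinning every cell to 8000 or 2000 UMIs gave 20 and 9 members lower, against 425 of 8572 and 140 of 3976 genes.

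Ndufs3, a core subunit of complex I, stood at 140 and 212 CPM in secretory progenitors and at 220 and 299 in progenitors. It was lower in secretory progenitors within each set and fell by 0.60 (SE 0.14, edgeR adjusted p = 0.00538). Ndufb6, an accessory subunit, fell by 0.60 (SE 0.16, adjusted p = 0.0113), from 525 and 370 to 320 and 278. The complex III core proteins Uqcrc2 and Uqcrc1 fell by 0.61 (SE 0.15, adjusted p = 0.00811) and 0.59 (SE 0.15, adjusted p = 0.00799). Uqcrc1 stood at 316 and 303 against 483 and 425, without overlap. In complex V, Atp5o fell by 0.58 (SE 0.17, adjusted p = 0.0221) and Atp5c1 by 0.56 (SE 0.15, adjusted p = 0.0146). Cox7b, a small complex IV subunit, fell by 0.49 (SE 0.16, adjusted p = 0.0466) and was the one complex IV call. The factor Ndufaf4 fell by 0.66 (SE 0.14, adjusted p = 0.00192), with 52.0 and 53.3 against 81.6 and 79.4. All adjusted p-values here are from edgeR.

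Goblet cells and secretory progenitors were close on the TMM scale. Of the 83 members 5 rose and 2 fell in goblet cells, against 15.4% of all genes called higher and 11.9% called lower (27.3% in either direction). Both shares of members lie below the background. The rises were Ndufa6, Ndufa1, Ndufa13 and Ndufv3 of complex I, and Cox7a1. Cox7a1 rose by 1.17 (SE 0.27, edgeR adjusted p = 0.00244), and was higher in goblet cells within each set, 73.9 against 50.8 in set1 and 48.4 against 25.1 in set2. The 10 enterocyte markers moved with it, at 3215 CPM in goblet cells against 1967 in set1 and 2624 against 1357 in set2, with 54335 and 23387 in enterocytes; their part in this rise was not tested. The complex I rises were of 0.40 to 0.47 on the TMM scale, and in plain CPM only 2 of the 5 risers were higher in goblet cells in both sets. Ndufa6 rose by 0.47 (SE 0.14, edgeR adjusted p = 0.0163) while its plain log2 ratio in CPM was -0.07 in set1 and 0.24 in set2. Ndufaf4 fell by 0.53 (SE 0.16, edgeR adjusted p = 0.0152), with 28.8 and 27.7 CPM against 52.0 and 53.3. Ndufaf6 fell by 1.06 (SE 0.24, edgeR adjusted p = 0.00154). With library totals 0 members were higher and 2 lower, against 292 and 1511 of all 11610 genes. With Paneth sums left out as well 1 was higher and 35 lower, against 781 and 3513 of 10575 genes. With the set left out of the model 0 members were called, against 284 genes higher and 407 lower of 11610. At an unadjusted p under 0.05 the last fit had 0 members higher and 2 lower. The summed level in CPM was 0.807-fold (log2 ratio -0.31 ± 0.01, SD, n = 2), and the 8 goblet markers took 172410 and 167620 CPM. With mucins, defensins and other secreted products left out the log2 ratio was -0.10.

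Paneth cells were lower than secretory progenitors. Of the 83 members 0 rose and 48 fell, against 9.07% of all genes called higher and 10.9% called lower (20% in either direction). Falls were called for 21 of 36 complex I members, 6 of 8 of complex III, 8 of 15 tested of complex IV, 11 of 15 of complex V and 2 of 9 factors. The members' median log2 fold change was -0.48, against -0.10 for all genes. With library totals 82 fell, but so did 10029 of all 11610 genes, whose median log2 fold change was -2.27 in that fit. With the set left out of the model 0 members were called, against 332 genes higher and 151 lower of 11610. At an unadjusted p under 0.05 the latter fit had 0 members higher and 19 lower. Median depth was 73555 and 67245 UMIs in Paneth cells against 19132 and 37838 in secretory progenitors. With every cell thinned to 8000 UMIs 19 of 80 tested members fell, against 191 of 8572 genes called lower. At 2000 UMIs 3 of 74 members fell, against 50 of 3976 genes. The summed level in CPM had a log2 ratio of -3.35 in set1 and -2.17 in set2, and a mean of -0.55 with secreted product genes left out. The TMM factors of the Paneth sums, 0.170 and 0.408, were far below the 0.932 to 1.65 of the others.

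Ndufs1, a core complex I subunit, fell most in Paneth cells among the named genes, by 1.08 (SE 0.20, edgeR adjusted p = 0.000421). It stood at 3.07 and 13.8 CPM in Paneth cells and at 59.9 and 83.0 in secretory progenitors. Thinned to 2000 UMIs per cell its log2 fold change was 0.05 and it was not called. Ndufa5, an accessory subunit, fell by 0.75 (SE 0.14, adjusted p = 0.000567). In complex III Uqcrc2 and Uqcrc1 fell by 0.67 (SE 0.17, adjusted p = 0.00554) and 0.51 (SE 0.16, adjusted p = 0.0234). In complex IV Cox5a fell by 0.87 (SE 0.17, adjusted p = 0.00105), from 1017 and 1358 to 80.5 and 225 CPM, and Cox7a2 by 0.73 (SE 0.16, adjusted p = 0.00261). The log2 fold changes are on the TMM scale, and the falls of Ndufs1 and Cox5a in plain CPM were larger. In complex V Atp5g3 fell by 0.76 (SE 0.16, adjusted p = 0.00131) and Atp5k by 0.74 (SE 0.16, adjusted p = 0.00186). All adjusted p-values here are from edgeR.

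Enteroendocrine cells were also lower than secretory progenitors on the TMM scale. Of the 83 members 1 rose and 26 fell, against 10.6% of all genes called higher and 11.2% called lower (21.9% in either direction). Falls were called for 5 of 36 complex I members, none of them core, 5 of 8 of complex III, 8 of 15 tested of complex IV, 8 of 15 of complex V and 0 of 9 factors. The members' median log2 fold change was -0.38, against -0.11 for all genes. With library totals 1 member was higher and 0 lower, against 1218 and 277 of all 11610 genes. With Paneth sums left out as well 3 were higher and 2 lower, against 1637 and 596 of 10575 genes. With the set left out of the model 0 members were called, against 672 genes higher and 354 lower of 11610. At an unadjusted p under 0.05 the last fit had 2 members higher and 3 lower. The summed log2 ratio in CPM was -0.09 in set1 and -0.25 in set2. Without the 5 of 35 and 7 of 45 enteroendocrine cells over 2 times their group's median depth, and such cells of other types, 0 rose and 55 fell. Of all 11607 genes in that fit 1423 were called higher and 1693 lower. The list of stromal and endothelial markers stood at 158 and 238 CPM here and at most 18.9 elsewhere, almost all of it Vim (143 and 233), with Col1a1, Col3a1 and Acta2 at 0; its part in these results was not tested.

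Ndufb9 and Ndufa3, accessory subunits of complex I, fell by 0.65 (SE 0.15, adjusted p = 0.00279) and 0.62 (SE 0.15, adjusted p = 0.00443) in enteroendocrine cells. Ndufb9 stood at 487 and 634 CPM against 637 and 841. In complex III Uqcrq, a small membrane subunit, fell by 0.62 (SE 0.16, adjusted p = 0.00615) and Uqcrc1 by 0.58 (SE 0.16, adjusted p = 0.0117). In complex IV Cox5a and Cox8a fell by 0.61 (SE 0.17, adjusted p = 0.0142) and 0.58 (SE 0.17, adjusted p = 0.0174). The c-ring genes Atp5g3 and Atp5g2 fell by 0.57 (SE 0.16, adjusted p = 0.0121) and 0.54 (SE 0.16, adjusted p = 0.0173), and Atp5g1 by 0.51 (SE 0.17, adjusted p = 0.0359), all in edgeR. The 1 rise was Cox6a2, at 0 CPM in set1 and 7.39 in set2, so it rests on a few UMIs of 1 set. The 9 factors had a median log2 fold change of -0.24 on the TMM scale, with 7 negative and 0 called, while their sum in plain CPM was 248 and 303 against 235 and 252.

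The 13 mitochondrially encoded subunits were set beside the nuclear members. In enterocytes against progenitors 12 of 13 rose and 0 fell, against 27.8% of all genes called higher and 28.2% lower. Their median log2 fold change was 0.57. In Paneth cells against secretory progenitors 1 of 13 rose, mt-Atp8 at 0.56 (edgeR adjusted p = 0.0193), and 0 fell, a share near the 9.07% of all genes called higher. The median was 0.37 on the TMM scale beside the members' -0.48. In plain CPM the mitochondrial sum was lower in Paneth cells in both sets, with log2 ratios of -2.66 and -1.17 beside the members' -3.35 and -2.17. The ratio of nuclear member UMIs to mitochondrially encoded UMIs was 0.632 in set1 and 0.262 in set2 Paneth cells. In the other 7 types it was 1.02 to 1.19 in set1 and 0.515 to 0.589 in set2. Paneth cells lay below every other type in both sets, and the sets did not overlap outside Paneth cells. In enteroendocrine cells 0 of 13 rose and 5 fell, against 10.6% of all genes called higher and 11.2% lower. The direction was that of the nuclear members. Secretory progenitors against progenitors had 0 of 13 called, against 7.33% of all genes called higher and 5.56% lower. The mitochondrial sum there had log2 ratios of -0.14 and -0.12 in set1 and set2, beside the members' -0.36 and -0.30. Stem cells against progenitors and goblet cells against secretory progenitors also had 0 of 13 called, against 6.93% and 27.3% of all genes. A test of the difference between nuclear and mitochondrial genes was not made.

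**Figure D4:**
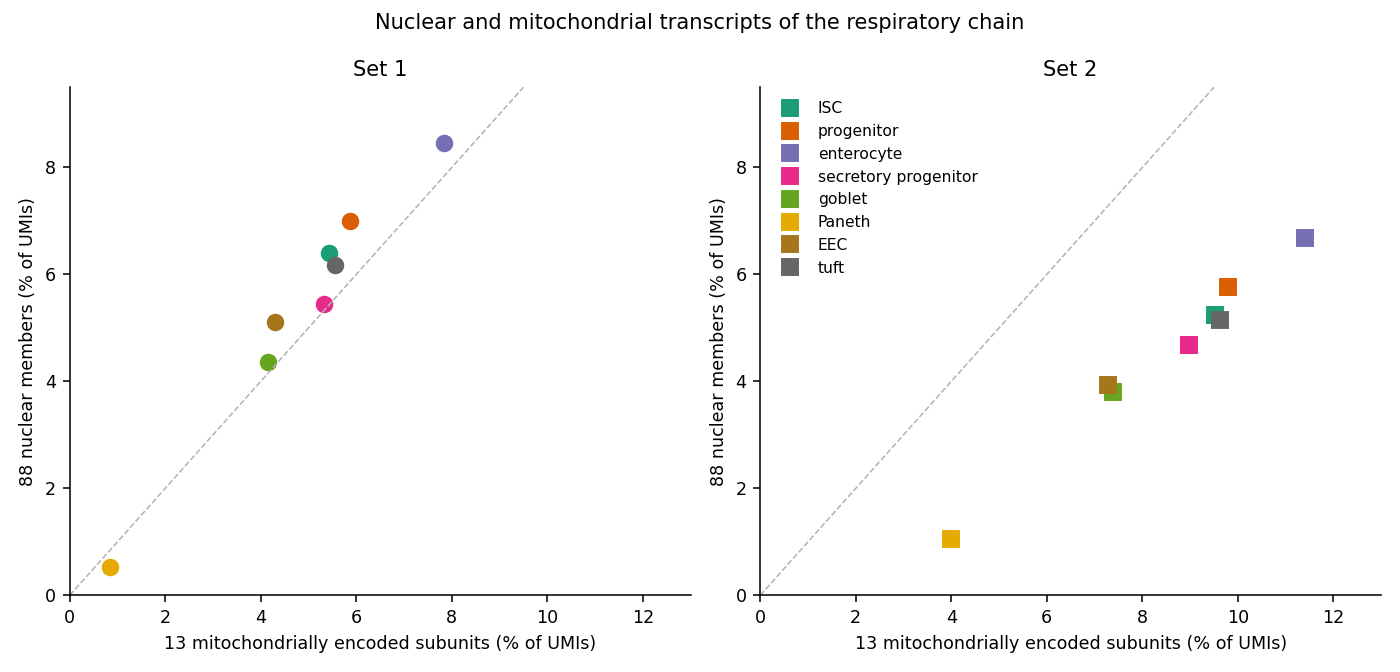
Share of UMIs in the 88 nuclear members (y axis, %) against the share in the 13 mitochondrially encoded subunits (x axis, %), with 1 point per cell type, set1 at left and set2 at right, and a dashed line where both are equal. Enterocytes are highest on both axes (8.45% nuclear and 7.83% mitochondrial in set1, 6.68% and 11.4% in set2) and Paneth cells lie apart at the lower left.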

How the data were processed

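Cells of the small intestine were profiled on the 10x Genomics Chromium platform, per the labels' protocols. The deposited matrices hold UMI counts per gene and cell, as whole numbers that were not normalized by the authors. The genome build is mm9 per the submitters' processing notes, the file header of set2 names matrix software 3.0.1, and strandedness, annotation and the settings of the aligner were not given in the sources used here. Types come from the authors' deposited annotation. The 65 barcodes of set1 and 6241 of set2 without a type entered no comparison.

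Counts were summed per type and set, giving 16 sums. edgeR 4.0.16 (R 4.3.3) fitted all sums in 1 model with type and set, TMM factors, filterByExpr and a quasi-likelihood test, two-sided, with Benjamini-Hochberg adjustment over 11610 genes and 7 residual degrees of freedom. DESeq2 1.42.0, other scalings, no filter, no set term, depth limits, thinning, cells over 2 times the median depth left out, secreted genes left out and Paneth sums left out were alternatives. All types of a set come from 1 library, so the set pairs them: deviations of the sets correlated at 0.234 to 0.705 (median 0.408) over 28 pairs of types. No doublet caller was run. With the set in the model, p-values measure how unevenly differences between types repeated in the 2 sets, with the spread pooled over all 8 types. That spread may be technical.

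Members and lists were chosen with earlier results of these data known. Genes are named by a rule: in each pair and complex, the 2 called members that rose most and the 2 that fell most, where the higher type had 50 CPM or more, plus the paralogs. Members named for other reasons are said to be, or complete a count. One result on the order of types is not reported here.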

Additional observations from a re-analysis of the deposited data

Results flagged for a closer look

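Barcodes without an annotated type also held member transcripts, and no comparison used them. In set1 the members took 4.75% of the UMIs of 65 such barcodes, which had a median of 11041 UMIs. In set2 they took 3.12% of the UMIs of 6241 barcodes with a median of 1738 UMIs. Among the types of the same set, 4.75% lies above set1 goblet cells (4.36%) and 3.12% below set2 goblet cells (3.81%). Whether these barcodes hold cells, debris or free RNA was not tested.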

How the results depend on the processing

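Counts of called members depended on scale and on the set term. Counts of all genes called changed too. Where not given with the pair above, they follow in brackets as higher and lower. DESeq2 called 3 members in stem cells (2 higher and 1 lower). It called 47 in secretory progenitors (all genes 754 and 356) and 15 in goblet cells (all genes 1494 and 1025). With DESeq2's size factors in edgeR 19 were called in secretory progenitors (all genes 941 and 469). Paneth cells had 26 (all genes 1250 and 823) and enteroendocrine cells 9 (all genes 1447 and 827). Library totals gave 7 in enterocytes, 0 in secretory progenitors, 2 in goblet, 82 in Paneth and 1 in enteroendocrine cells, and with Paneth sums left out 40, of which 31 higher, in enterocytes, 36 in goblet and 5 in enteroendocrine cells. Thinning to 2000 UMIs per cell left out 0 to 10 cells per type and set, with 74 members and 3976 genes tested. It gave 38 called members in enterocytes (all genes 1020 and 927), 9 in secretory progenitors and 2 in goblet cells (all genes 401 and 228). Paneth cells had 3 and enteroendocrine cells 6 (all genes 285 and 246). At 8000 UMIs (0 to 28 cells left out) 20 were called in secretory progenitors, 3 in goblet (all genes 927 and 754) and 19 in Paneth cells. Without cells over 2 times the median depth 25 were called in Paneth (all genes 828 and 835) and 55 in enteroendocrine cells. Without secreted product genes 29 were called in Paneth (all genes 1218 and 852) and 13 in enteroendocrine cells (all genes 1296 and 860). Fewer genes or cells enter the thinned fits and those with cells, secreted genes or Paneth sums left out. DESeq2, its size factors in edgeR and library totals with Paneth sums kept used the same cells and 11610 genes as the main fit. The cause of the changed counts was not tested. Library totals reversed Cox6b2 in Paneth cells (-2.01), where the median of all genes was -2.27. With Paneth sums left out as well they reversed Atp5g1 (-0.37), Cox4i1 (-0.29) and Cox7a2l (-0.35) in goblet cells. The median of all genes in that fit was -0.35, so these signs moved with the scale. Thinning to 2000 reversed Ndufs1 in Paneth cells (0.0457), where the median of all genes was -0.23.

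In the model without the replicate block (the set term) 8 members were called in enterocytes and 0 in stem cells, secretory progenitors, goblet, Paneth and enteroendocrine cells. Leaving out a set leaves no residual degrees of freedom, so only summed ratios were recomputed that way.

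Summed log2 ratios moved as follows. Without mitochondrial and ribosomal protein genes they were -0.0366 for stem cells, 0.0597 for enterocytes, -0.38 for secretory progenitors and -0.45 for goblet cells. Without secreted product genes they were -0.25 for secretory progenitors, -0.10 for goblet and -0.55 for Paneth cells. Thinned to 2000 UMIs they were -0.16 for stem, -0.38 for goblet and -0.34 for enteroendocrine cells, and at 8000 UMIs -0.17 for stem cells, -0.38 for secretory progenitors, -0.34 for goblet and -0.32 for enteroendocrine cells. Without deep cells they were -0.13 for stem, -0.34 for goblet and -0.43 for enteroendocrine cells. Depth limits the tuft and enteroendocrine sums most, and members with few UMIs, such as Cox6a2.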

Other observations

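Genes around the respiratory chain did not all follow its subunits in enterocytes against progenitors. Complex II and electron carriers rose in 10 of 11 genes and fell in 0, among them Sdha (log2 fold change 0.57, SE 0.14, edgeR adjusted p = 0.00108), the catalytic subunit of succinate dehydrogenase, and Cycs, cytochrome c (0.77, SE 0.17, adjusted p = 0.000556). Of 16 genes of the citric acid cycle 8 rose and 1 fell, with Cs, citrate synthase, at 0.98 (SE 0.15, adjusted p = 3.95e-06). Of 14 tested glycolysis genes 9 rose and 1 fell. The fall was Hk2, a hexokinase, at -1.69 (SE 0.27, adjusted p = 1.05e-05). The mitochondrial ribosome went the other way, with 3 of 76 tested genes higher and 32 lower (median -0.26). In secretory progenitors 0 were higher and 35 lower. Background shares are those given for each pair.

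Of 15 listed regulators 3 rose and 7 fell in enterocytes against progenitors, where 27.8% of all genes were called higher and 28.2% lower. The share of regulators that rose lies below that of all genes. Ppargc1a, a coactivator known for driving mitochondrial biogenesis, stood at a mean of 66.5 CPM in enterocytes and 11.2 in progenitors and rose by 2.85 (SE 0.21, edgeR adjusted p = 5.24e-11). Esrra, the receptor whose motif was searched, rose by 1.25 (SE 0.18, adjusted p = 1.84e-06), and Ppara, a receptor for fatty acids, by 0.73 (SE 0.19, adjusted p = 0.00226). Tfam, which packages mitochondrial DNA, fell by 1.15 (SE 0.16, adjusted p = 1.08e-06), Nrf1 by 0.77 (SE 0.19, adjusted p = 0.00127) and Pprc1, a relative of Ppargc1a, by 2.72 (SE 0.27, adjusted p = 6.39e-09). These examples were chosen after their values were seen.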
